A study of Mus musculus with 2 samples.

Results

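The genes described here are Ccn1, Ccn2, Ccn3, Ccn4 and Ccn5 of the CCN family of matricellular proteins. They were taken by symbol, 5 of the 32285 genes listed in both count matrices, and all 5 were found. The family was chosen by UMI counts of these same libraries, chiefly the rise of Ccn3 between the ages, so the differences between ages are given as descriptions. The data are droplet single-cell RNA libraries of limb skeletal muscles from wild-type C57Bl/6 mouse embryos, 1 library from each of the embryonic days E12.5 and E15.5. Forelimb and hindlimb tissue was pooled in each library, no treatment or altered allele was named, and the number and sex of the embryos were not given in the sources used here. Without replicates there was no test between ages, and every interval below is a 95% interval that covers counting error only.

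CCN proteins are secreted into the extracellular matrix, where they bind integrins, heparan sulphate proteoglycans and growth factors and so tune how cells answer to their surroundings. Ccn1 (also called Cyr61) and Ccn2 (also called Ctgf) are known as fast-responding genes, induced by serum, by TGF-beta and, through YAP, TAZ and their TEAD partners, by mechanical load. Ccn2 is needed for normal growth plate cartilage. Ccn3 (Nov) often opposes Ccn2 in culture, Ccn4 (Wisp1) is known as a WNT-induced gene of bone and fibroblasts, and Ccn5 (Wisp2) lacks the carboxy-terminal domain of the other members.

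The family lies on 4 chromosomes of mouse build GRCm38 (GENCODE vM21). Ccn1 (ENSMUSG00000028195) is at chr3:145646976-145649981 on the minus strand. Ccn2 (ENSMUSG00000019997) is at chr10:24595442-24598683 on the plus strand and overlaps the antisense gene Gm15270. Whether the authors' counting used strand is not given in the sources used here, so reads of Ccn2 and Gm15270 may not be separable. Ccn3 (ENSMUSG00000037362, chr15:54745702-54754039) and Ccn4 (ENSMUSG00000005124, chr15:66891320-66923201) share a chromosome and the plus strand. Ccn5 (ENSMUSG00000027656) is at chr2:163820861-163833146 on the plus strand.

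The RefSeq promoter table (GRCm38.p6) matched 1 of the 5 members, Ccn1. Its window of 250 bases before to 50 bases after the start, chr3:145649936-145650235 read on the minus strand, is shown because it holds letters of the TEAD and cyclic-AMP response motifs for which Ccn1 is known. Capitals mark, from left to right, CATTCC (the TEAD motif), CGTCA (the reverse complement of TGACG, a core of the cyclic-AMP response element) and TATAAA.
Ccn1: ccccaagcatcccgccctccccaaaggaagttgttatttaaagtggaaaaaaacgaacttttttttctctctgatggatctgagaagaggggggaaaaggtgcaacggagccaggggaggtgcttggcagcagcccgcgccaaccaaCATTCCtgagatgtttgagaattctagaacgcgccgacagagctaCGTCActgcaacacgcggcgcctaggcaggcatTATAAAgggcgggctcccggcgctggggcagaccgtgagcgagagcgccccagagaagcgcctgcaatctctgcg
CATTCC, searched on both strands, occurred once, with its first base 103 bases before the start, and was present in 14.7% of the 32851 promoters in the table. TGACG, also searched on both strands, lay 58 bases before the start and was present in 20.8% of promoters. TATAAA, searched on the gene's strand, began 25 bases before the start and was present in 8.32%. The AP-1 motif TGANTCA, held by 7.81% of promoters, and the CArG box of serum response factor, held by 1.63%, had 0 matches in this window. The SMAD motif GTCTG occurred once, 3 bases after the start, and was present in 49.6% of promoters. None of the 4 matches overlaps another. These are matches of letters, not binding sites.

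Of 12941 barcodes with 34907675 UMIs (unique molecular identifiers, 1 per captured RNA molecule) at E12.5, 11001 cells were kept, with a median of 2324 UMIs. Of 5780 barcodes with 46966083 UMIs at E15.5, 3917 cells were kept, with a median of 9295. The 2 libraries shared 17 barcode sequences, 10 of them among kept cells. Cells were clustered in each library without the Ccn genes and classes were rebuilt from marker genes, since no cell annotation was used. The connective tissue-like class had 7686 cells in the E12.5 library and 1677 in the E15.5 library, the muscle lineage-like class 610 and 399, the chondrocyte-like class 1189 and 571, and the endothelial-like class 130 and 158. Tenocyte-like (147 cells), mural-like (71), mast-like (70), immune-like (59), Schwann-like (51), melanocyte-like (42) and epithelial-like (26) classes were named at E15.5 only, and 1337 and 631 cells had no name. The clusters within a class are not the same at both ages, so a class value may move with its makeup. Levels are UMIs of a gene summed over a class and given as CPM, the usual scaling to a fixed total of UMIs in that class. The chemistry counts the 3-prime end of each molecule, so that CPM is not scaled by gene length, and levels are compared below between classes and ages of 1 gene only.

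Over all kept cells, the family's counts moved in different directions between the ages. Ccn1 went from 4351 to 7429 UMIs, or from 154 to 182 CPM. Ccn2 went from 984 to 770 UMIs, or from 34.8 to 18.9 CPM. Ccn3 went from 26 UMIs to 1835, or from 0.920 to 45.0 CPM, and Ccn4 from 451 to 2061, or from 15.97 to 50.5 CPM. Ccn5 was almost unseen, with 0 UMIs in the kept E12.5 cells and 22 in those of E15.5, at least 5.08-fold higher when the E12.5 count is set at the 3 UMIs that a count of 0 allows and the 22 UMIs are taken without counting error. In each class the median gene had a log2 ratio (E15.5 over E12.5) below 0, at -0.38 in the connective tissue-like, -0.36 in the muscle lineage-like and -0.22 in both the chondrocyte-like and endothelial-like classes. Ratios below are on the CPM scale unless given relative to that median gene.

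**Figure D1:**
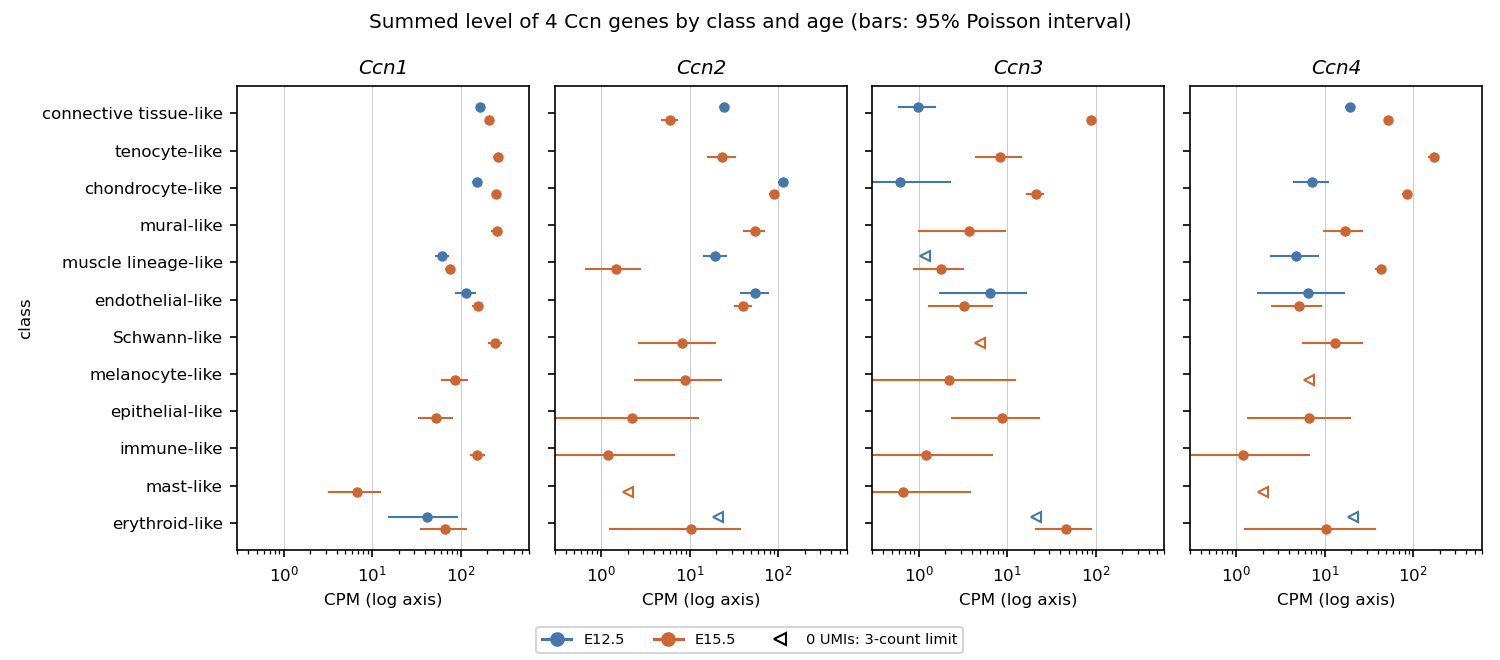
Level of Ccn1, Ccn2, Ccn3 and Ccn4 in each class (rows) as CPM on a log axis, blue for E12.5 and orange for E15.5, with 95% Poisson intervals as bars and open triangles at the 3-count limit where no UMI was seen. Ccn3 stands at 0.992 CPM at E12.5 and 88.1 CPM at E15.5 in the connective tissue-like class, and Ccn4 is highest in the tenocyte-like class.

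Ccn1, the serum- and strain-responsive member, was broadly present, and its level changed less than 2-fold between the ages in each class compared. In the connective tissue-like class it stood at 166 CPM (161 to 172, 3186 UMIs) at E12.5 and 208 CPM (201 to 214, 3786 UMIs) at E15.5. The log2 ratio of 0.32 (0.25 to 0.39) was 0.70 relative to the median gene, and 0.17 in male cells only. In the chondrocyte-like class it went from 153 to 249 CPM, a log2 ratio of 0.71 (0.55 to 0.87), and in the endothelial-like class from 115 to 156 CPM, a ratio of 0.44 (0.07 to 0.83). The muscle lineage-like class was lower at both ages, with 62.0 and 76.1 CPM. Its ratio of 0.30 (0.03 to 0.57) became 0.0080 when each cell was thinned to 2000 UMIs, and the share of thinned muscle lineage-like cells with a Ccn1 UMI was lower at the later age, 9.72% after 11.0%, so that the ages cannot be ordered there.

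At E15.5 the order of Ccn1 levels was tenocyte-like (264 CPM), mural-like (255), chondrocyte-like (249) and Schwann-like (246), whose intervals overlapped, then the connective tissue-like class at 208, reached by the lower bound for Schwann-like cells (also 208). Endothelial-like (156) and immune-like (155) cells followed, overlapping each other, and then melanocyte-like (85.7), muscle lineage-like (76.1), erythroid-like (67.1) and epithelial-like (53.1) cells, with overlapping intervals. Mast-like cells were lowest at 6.76 CPM (10 UMIs), although their median depth of 17801 UMIs was the deepest of the classes. Among single clusters Ccn1 was present in all 27 at E12.5, from 42.0 to 259 CPM. Over the 28 clusters of at least 20 cells at E15.5 it ran from 6.76 to 382 CPM, the highest being a connective tissue-like cluster led by Dpt, Igfbp6 and Ly6a. Inside the muscle lineage the Mymx- and Myog-led cluster of differentiating cells had 17.4 CPM at E15.5 (18 UMIs), against 89.2 and 94.3 in the 2 Pax7-expressing clusters and 51.3 in the sarcomere gene cluster. At E12.5 the matching values were 48.0 CPM in the Myog-led cluster, 56.6 and 77.8 in the Pax7-expressing clusters and 58.1 in the sarcomere gene cluster.

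Ccn1 belongs to the genes that cells induce within minutes of disturbance, and other immediate early genes differed between the libraries as well. The summed level of 14 such genes, Fos, Jun and Egr1 among them, went from 2349 to 5571 CPM in the connective tissue-like class, with 11 of 14 at least 2-fold higher, beside 10.2% of the 15213 genes tested there. Their median log2 ratio was 1.59, with Atf3 (2.75) and Zfp36 (2.69) highest and Egr1 (0.44) and Egr2 (0.46) lowest. The sum went from 1713 to 6416 CPM in the chondrocyte-like class, from 3367 to 6697 CPM in the endothelial-like class, and from 1776 to 2392 CPM in the muscle lineage-like class. Classes with a high sum did not all have a high Ccn1 level. The immune-like class had the highest sum, 17085 CPM, and mast-like cells had 4878 CPM beside their 6.76 CPM of Ccn1. Induction of these genes by the trypsin and mechanical dissociation named in the labels was not tested, and neither was its part in the Ccn1 values.

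**Figure D2:**
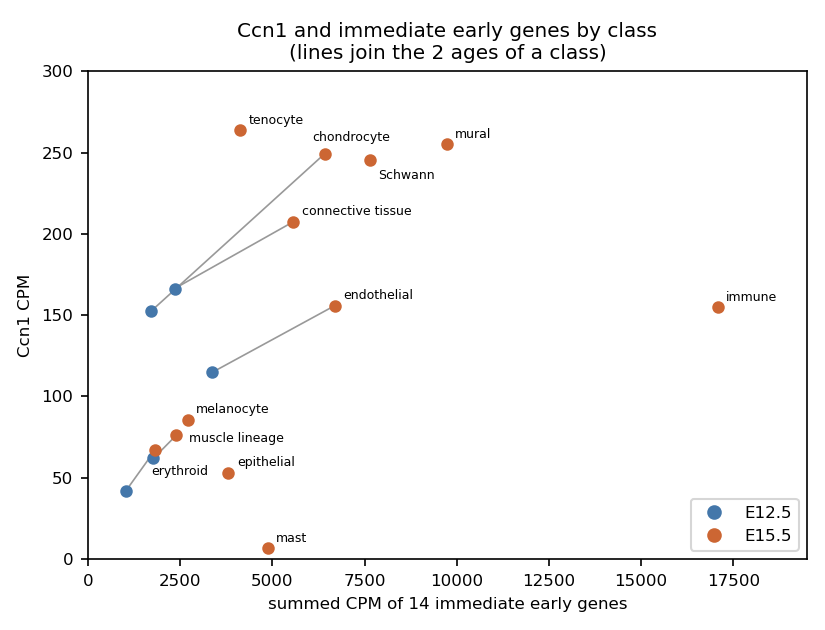
Each point is a class in 1 library, with the summed CPM of 14 immediate early genes on the horizontal axis and Ccn1 CPM on the vertical axis, blue for E12.5 and orange for E15.5, and lines joining the ages of a class. Both measures are higher at E15.5 in the connective tissue-like, chondrocyte-like and endothelial-like classes, while mast-like and immune-like cells lie away from the others.

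Ccn2, the connective tissue growth factor, was highest in the chondrocyte-like class at E12.5 and again at E15.5, and in the classes as named here it was lower at E15.5 in connective tissue and muscle. The chondrocyte-like class held 113 CPM (101 to 125, 361 UMIs) at E12.5 and 88.9 CPM (80.3 to 98.1, 393 UMIs) at E15.5. This class made up 10.8% of the kept cells at E12.5 and had 36.7% of the Ccn2 UMIs, and at E15.5 it made up 14.6% of the cells and had 51.0%. By cluster, Ccn2 was highest at E12.5 in cells led by Hapln1, Matn1 and Acan (134 CPM), cartilage matrix genes, and at E15.5 in cells led by Matn1, Col2a1 and Col9a1 (155 CPM). The log2 ratio for the class was -0.34 (-0.55 to -0.13), which left -0.12 against the class's median gene. It turned to 1.20 when both libraries were clustered together, which put other cells in the class, 3072 at E12.5 and 49 at E15.5. No direction is therefore given for cartilage.

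In the connective tissue-like class Ccn2 stood at 24.3 CPM (22.1 to 26.6, 465 UMIs) at E12.5 and 5.97 CPM (4.91 to 7.21, 109 UMIs) at E15.5. The log2 ratio was -2.02 (-2.34 to -1.72), which left -1.64 against the class's median gene. Ccn2 was the 1 member at least 2-fold lower there, where 24.9% of genes were. With both libraries clustered together the E15.5 level of the class was 19.6 CPM and the ratio -0.044. The class then had 2531 E15.5 cells in place of 1677. The chondrocyte-like class, where Ccn2 was highest, then had 49 E15.5 cells in place of 571. The difference in Ccn2 therefore depends on which E15.5 cells count as connective tissue. At E12.5 the level varied from 5.34 CPM in a cluster led by Grem1 and Kera to 62.5 CPM in one led by Gria2, Isl1 and Bmp2. At E15.5 it ran from 0 UMIs in a cluster led by Twist2 and Stmn2 to 25.5 CPM (9 UMIs) in one led by Spink6.

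In the muscle lineage-like class Ccn2 had 49 UMIs (19.5 CPM, 14.4 to 25.7) at E12.5 and 9 UMIs (1.47 CPM, 0.671 to 2.78) at the later age. The log2 ratio was -3.73 (-4.94 to -2.69). Of the members with at least 20 UMIs in muscle it was the 1 at least 2-fold lower, where 19.0% of the 11252 genes tested were. Of the 49 UMIs at E12.5, 27 came from the 53 cells led by Myh3, Mylpf and Myl4, embryonic sarcomere genes, where the level was 87.2 CPM. Without the sarcomere gene clusters the E12.5 level of the class was 9.96 CPM. The sarcomere gene cluster at E15.5, 20 cells led by Mylpf and Tnnc2, had 3 Ccn2 UMIs (6.99 CPM). Thinning to 2000 UMIs gave a ratio of -2.23 in place of -3.73.

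Blood vessel classes had a Ccn2 level between those of cartilage and connective tissue. Endothelial-like cells had 34 UMIs (55.0 CPM, 38.1 to 76.8) at E12.5 and 87 UMIs (40.4 CPM, 32.3 to 49.8) at the later age, with a log2 ratio of -0.45 whose interval (-1.03 to 0.17) held 0. Mural-like cells, the pericytes and smooth muscle around vessels, had 54.2 CPM (41.1 to 70.0) at E15.5, overlapping the endothelial-like value, and tenocyte-like cells had 23.3 CPM (16.3 to 32.2). Melanocyte-like and Schwann-like cells had 8.79 and 8.30 CPM on 4 and 5 UMIs, epithelial-like and immune-like cells 1 UMI each, and mast-like cells 0 UMIs, which allows up to 2.03 CPM.

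**Figure D3:**
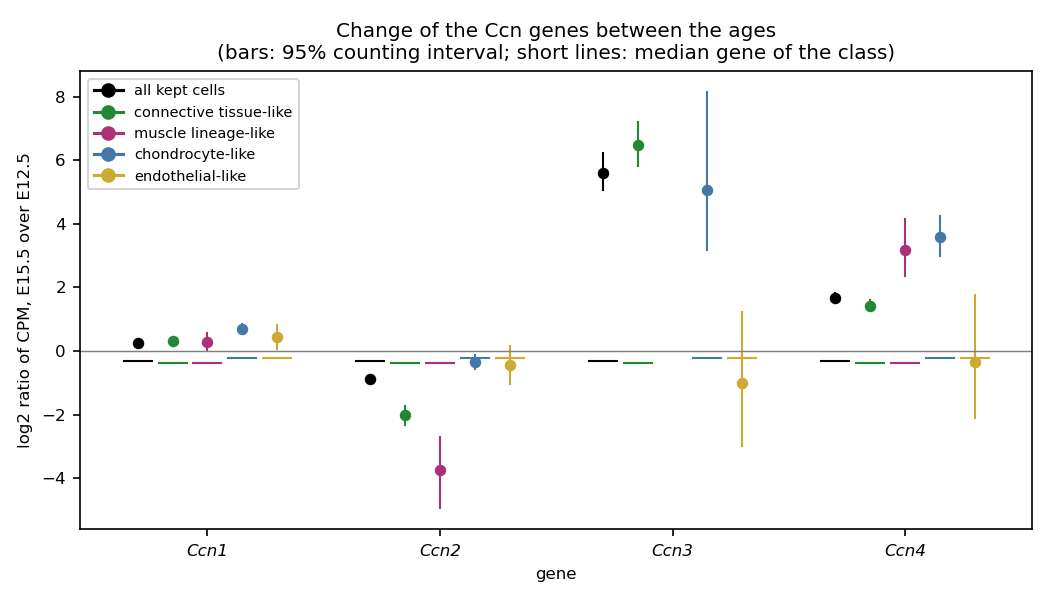
Log2 ratio of CPM, E15.5 over E12.5, for 4 Ccn genes (horizontal axis) in all kept cells and in 4 classes (colours), with 95% counting intervals as bars and a short line at the class's median gene. Ccn3 and Ccn4 lie above 0 except in endothelial-like cells, where both intervals span 0, and Ccn2 lies lowest in the muscle lineage-like class.

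Ccn3 was barely detected at E12.5 and was a connective tissue gene at E15.5. In the connective tissue-like class it had 19 UMIs (0.992 CPM, 0.597 to 1.55) at E12.5 and 1608 UMIs (88.1 CPM, 83.9 to 92.5) at E15.5. The log2 ratio was 6.47 (5.83 to 7.21), or 88.8-fold, and 16 of the 15213 genes tested in the class had a higher ratio. In male cells only the ratio was 5.73, from an E12.5 level of 1.60 CPM. After thinning each cell to 2000 UMIs, 0.144% of 4851 cells had a Ccn3 UMI at E12.5 and 11.3% of 1670 cells (9.78 to 12.9) at E15.5. Without thinning the shares were 0.221% and 30.9%. In mast-like cells, taken as a class that should lack the gene, 1 of 70 cells (1.43%) had a Ccn3 UMI at E15.5. Their median depth of 17801 UMIs was above the 9985 of the connective tissue-like class. Mast-like cells are not the only such class, and the unthinned share differed between small classes. It ran from 0 of 51 Schwann-like cells to 2 of 26 epithelial-like (7.69%) and 3 of 15 erythroid-like cells (20%). Of the UMIs of the 5 Ccn genes in the connective tissue-like class, Ccn3 held 0.471% at E12.5 and 24.9% at E15.5.

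Ccn3 and Ccn4 were the 2 members with at least 20 UMIs that were at least 2-fold higher in the connective tissue-like class. The share of all its genes was the 10.2% given above. The connective tissue-like class held 87.6% of all Ccn3 UMIs of the kept cells at E15.5, with 42.8% of those cells. Chondrocyte-like cells had 21.0 CPM (17.0 to 25.8, 93 UMIs), against 2 UMIs (0.625 CPM) at E12.5, and the unnamed cells had 25.8 CPM at E15.5. Tenocyte-like cells had 8.41 CPM (13 UMIs) and epithelial-like cells 8.85 CPM (4 UMIs), with overlapping intervals. Mural-like (3.74), endothelial-like (3.25), melanocyte-like (2.20), muscle lineage-like (1.79), immune-like (1.20) and mast-like (0.676) values overlapped one another. Schwann-like cells had 0 UMIs, which allows up to 4.98 CPM. The 15 erythroid-like cells had 9 Ccn3 UMIs (46.5 CPM, 21.2 to 88.2), carried by 3 cells, an interval that overlaps those of the connective tissue-like and chondrocyte-like classes.

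Within the connective tissue-like class at E15.5, Ccn3 was unevenly spread. The 10% of cells with most Ccn3 held 69.6% of its UMIs, with up to 36 UMIs in 1 cell, where the 10% of cells highest for Ccn1 and for Ccn4 held 42.9% and 46.3% of their UMIs. The level was highest, 676 CPM on 239 UMIs, in 31 cells led by Spink6, Anxa8, Pi16 and Tppp3. It was 242 CPM in 117 cells led by Dpt, Igfbp6 and Ly6a, genes known from fibroblasts of fascia and the dermis. A cluster led by the cell division genes Hmmr and Nusap1 had 99.3 CPM, and the 2 largest clusters, led by Fst and Sfrp4 and by Aldh1a3 and Cntfr, had 61.5 and 64.3. Clusters led by Aldh1a2 and Cxcl13 (27.3 CPM), Twist2 and Stmn2 (17.8) and Ch25h and Sostdc1 (16.4) had least, with overlapping intervals. Without the Spink6-led cells the class level at E15.5 was 76.5 CPM. At E12.5, 8 of the 19 UMIs came from a cluster led by Akap12, Apcdd1 and Hoxb4 (6.40 CPM), and without it the log2 ratio was 7.16. In 16 of the 27 clusters at E12.5 no Ccn3 UMI was seen.

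**Figure D4:**
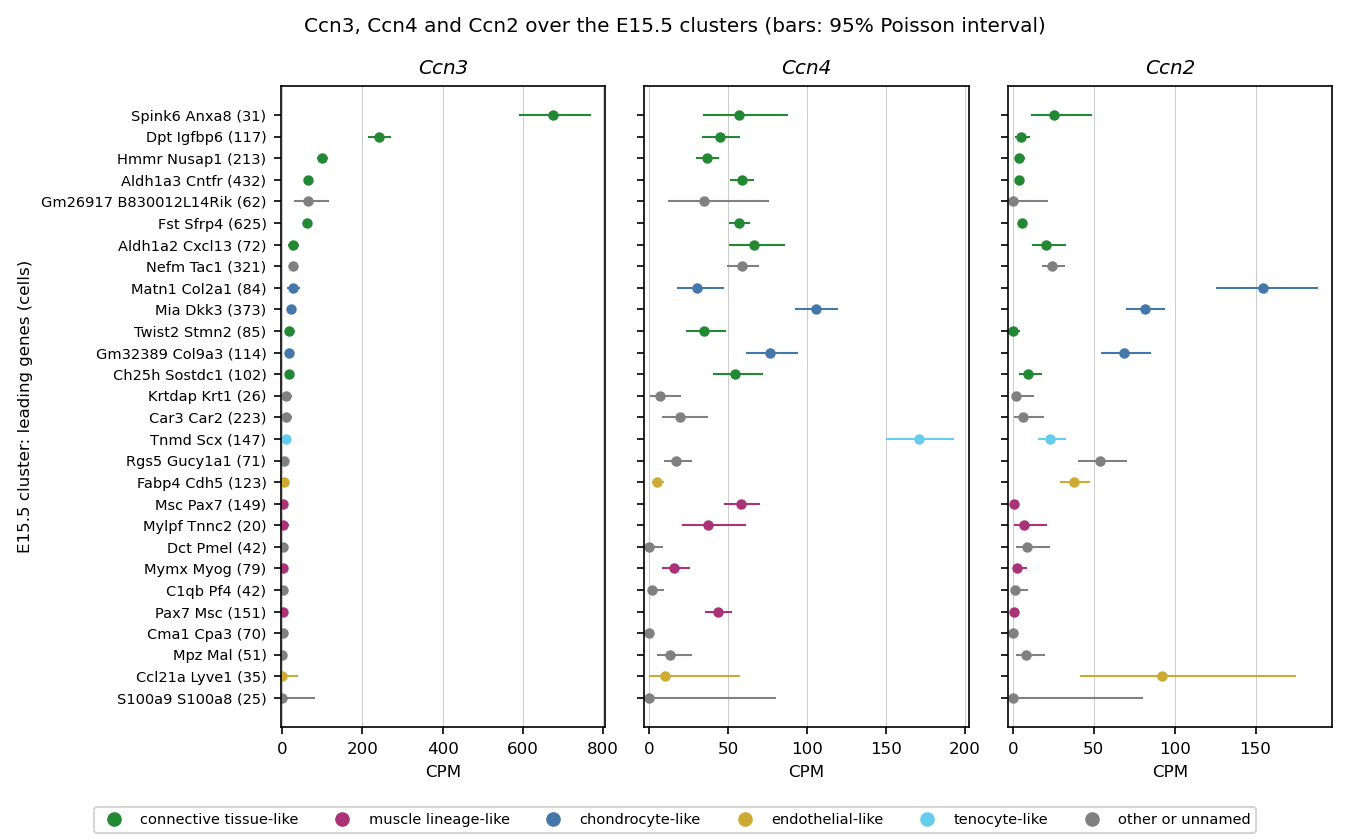
CPM of Ccn3, Ccn4 and Ccn2 (panels) in the 28 E15.5 clusters of at least 20 cells, ordered by Ccn3, with 95% Poisson intervals as bars and colours for the named classes. Ccn3 is highest in the clusters led by Spink6 (676 CPM) and Dpt (242), Ccn4 in the tenocyte-like cluster led by Tnmd and Scx (171) and Ccn2 in the cartilage cluster led by Matn1 (155).

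The genes whose level ran most like Ccn3 over these 28 clusters were Tnxb (Pearson r = 0.90), Scara5 (0.89), C1qtnf7 (0.88), Mfap5 (0.88) and Efemp1 (0.86), on the log2(CPM + 10) scale. Tnxb, Mfap5 and Efemp1 code for matrix proteins of elastic and collagen fibres. All 5 were also the top 5 with finer clusters (resolution 2.0), where 4 of the 5 named below for Ccn1 and for Ccn4 and 3 of the 5 for Ccn2 stayed. Over the 27 E12.5 clusters the same genes had r from -0.19 (Tnxb, 8 UMIs in that library) to 0.51 (C1qtnf7), where Ccn3 itself rested on 26 UMIs. The clusters share a library and differ in depth, so these values are descriptions. Against Ccn1, Ccn2 and Ccn4 the r of Ccn3 at E15.5 was 0.44, 0.047 and 0.48.

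Ccn4, the WNT-inducible member, was higher at E15.5 in the connective tissue-like, muscle lineage-like and chondrocyte-like classes. In the connective tissue-like class it had 368 UMIs (19.2 CPM, 17.3 to 21.3) at E12.5 and 945 UMIs (51.8 CPM, 48.5 to 55.2) in the E15.5 library. Its log2 ratio was 1.43 (1.26 to 1.61), and the difference from the median gene was 1.81. Shares of cells thinned to 2000 UMIs were 4.06% and 10.5%. Tenocyte-like cells, the tendon cells marked by Scx and Tnmd, had the highest level at E15.5, 171 CPM (151 to 193, 264 UMIs), above every other class interval. They were 3.75% of the kept cells and held 12.8% of the Ccn4 UMIs. Chondrocyte-like cells had 86.2 CPM (77.7 to 95.3), and the next classes were connective tissue-like at 51.8 and muscle lineage-like at 43.0 CPM (38.0 to 48.5), whose intervals met at 48.5. Mural-like (16.8) and Schwann-like (13.3) cells overlapped each other, endothelial-like cells had 5.10 CPM, and mast-like and melanocyte-like cells 0 UMIs. Erythroid-like (10.3), epithelial-like (6.64) and immune-like (1.20) values rested on 2, 3 and 1 UMIs.

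In the muscle lineage-like class Ccn4 had 12 UMIs (4.77 CPM, 2.46 to 8.32) at E12.5 and 264 UMIs (43.0 CPM) at E15.5. The log2 ratio of 3.17 (2.35 to 4.15), a 9.03-fold difference, was exceeded by 43 of the 11252 genes tested in the class. With no doublets removed the E12.5 level was 8.44 CPM and the ratio 2.33. Among Ccn1, Ccn2 and Ccn4, the members with at least 20 UMIs in muscle, Ccn4 alone was at least 2-fold higher, where 4.66% of genes were. Ccn3 went from 0 to 11 UMIs there and Ccn5 from 0 to 2, too few to be counted. Thinned shares were 0.898% of 557 cells and 7.16% of 391 cells (4.81 to 10.2), and unthinned shares 1.80% and 40.4%. Of the 70 mast-like cells, at a greater median depth, 0 had a Ccn4 UMI, which allows a share of up to 4.29%. Other small classes differed in their unthinned share. It was 1.69% of 59 immune-like, 11.5% of 26 epithelial-like and 13.3% of 15 erythroid-like cells.

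Within the muscle lineage at E15.5, the Pax7-expressing clusters had 58.0 CPM of Ccn4 (47.9 to 69.6, 115 UMIs) and 43.5 CPM (36.0 to 52.1, 117 UMIs). The sarcomere gene cluster had 37.3 CPM (21.3 to 60.5, 16 UMIs), overlapping both, and the Mymx- and Myog-led cluster was below the Pax7-expressing clusters with 15.49 CPM (8.85 to 25.1, 16 UMIs). At E12.5 the Pax7-expressing clusters had 7.62 and 3.70 CPM, the Myog-led cluster 4.18 and the sarcomere gene cluster 0 UMIs. These E12.5 values rest on 7 or fewer UMIs per cluster, and for the Myog-led clusters the intervals of the ages overlapped.

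Connective tissue RNA in muscle lineage-like cells was measured beside this result. In the muscle lineage-like class the 12 connective tissue markers summed to 1139 and 1121 CPM at the earlier and later age, with none at 0. Tcf4 alone gave 763 and 604 CPM of these sums. It was not particular to connective tissue, since endothelial-like cells had 115% and 144% of its connective tissue-like level. In the connective tissue-like class the markers summed to 5391 and 13031 CPM. At E15.5 a marker's level in muscle lineage-like cells was 1.17% to 70.7% of its connective tissue-like level, with a median of 3.09%. For Ccn4 that figure was 83.1% (72.2 to 95.3), above the values of all 12 markers. Its interval overlapped that of Tcf4, the highest marker (70.7%, 68.2 to 73.3), and Osr2 was next at 14.9%. The markers also served to name the connective tissue-like class, so low figures for them in muscle are partly built in. For Ccn3 the figure was 2.03% (1.01 to 3.65), and 8 of the 12 markers were above it. Ccn1 stood at 36.7% and Ccn2 at 24.5%. At E12.5 the figure for Ccn4 was 24.8% (12.7 to 43.8), with 1 of the 12 markers, Tcf4 (62.4%), above it. For Ccn1 and Ccn2 the E12.5 figures were 37.2% and 80.1%.

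**Figure D5:**
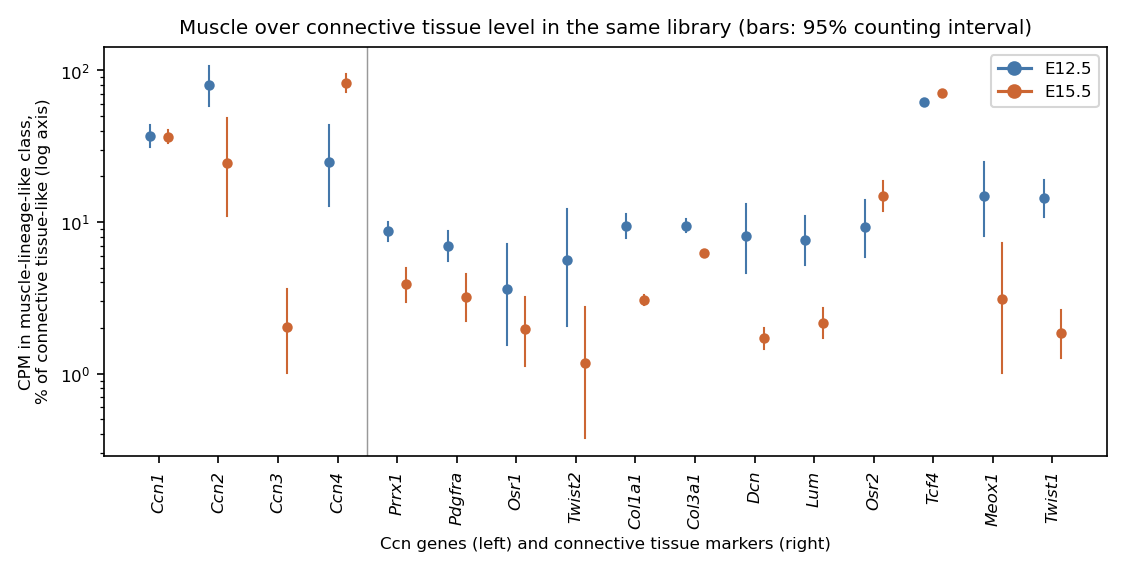
Level in the muscle lineage-like class as a percentage of the connective tissue-like level of the same gene and library (log axis), for Ccn genes on the left and 12 connective tissue markers on the right, with 95% counting intervals as bars. At E15.5 Ccn4 stands at 83.1%, above the value of each marker but with an interval that overlaps that of Tcf4. Ccn3 stands at 2.03%, among the lower markers.

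In the chondrocyte-like class Ccn4 had 23 UMIs (7.19 CPM, 4.56 to 10.8) at E12.5 and 381 (86.2 CPM) at the later age. The log2 ratio was 3.58 (2.98 to 4.26). Ccn3 and Ccn4 were the 2 members at least 2-fold higher there, beside 10.3% of the 12094 genes tested, and no member was at least 2-fold lower, beside 14.6%. The Ccn3 ratio was 5.07 (3.18 to 8.14), 2.98 in male cells only and 7.19 with both libraries clustered together. That joint class had 3072 cells at E12.5 and only 49 at E15.5. The makeup of this class differed between the ages. Its 9 chondrocyte markers summed to 11362 CPM at E12.5 and 3824 at E15.5, its 12 connective tissue markers to 2320 and 6594, and its 7 erythroid markers to 206 and 978. Of its E15.5 cells, 373 of 571 were in a cluster led by Mia and Dkk3, where Ccn4 stood at 105 CPM, and the class had 60.8 CPM without it. In the most cartilage-like cluster, led by Matn1 and Col2a1, Ccn4 was 30.3 CPM, and with both libraries clustered together the class ratio was 1.81. The part of this makeup in the Ccn3 and Ccn4 values was not tested.

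Endothelial-like cells had too few Ccn3 and Ccn4 UMIs to give a direction. Ccn3 had 4 UMIs and then 7, and Ccn4 had 4 and then 11, with log2 ratios of -0.99 (-2.97 to 1.23) and -0.34 (-2.10 to 1.76). Of the 2 members with at least 20 UMIs in this class, Ccn1 and Ccn2, 0 were 2-fold higher and 0 were 2-fold lower, beside 7.36% and 12.2% of the 9041 genes tested. Differences below a few-fold in Ccn3 and Ccn4 were not detectable there at this depth. The Ccn4 interval holds the connective tissue-like ratio of 1.43, and the Ccn3 interval does not hold the 6.47 of that class.

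Genes most like Ccn4 over the 28 E15.5 clusters were Pdgfrl (r = 0.90), Ogn (0.89), Mfap4 (0.89), Gas1 (0.88) and Crabp2 (0.85), and their r over the 27 E12.5 clusters was 0.40 to 0.64. Ogn codes for a small leucine-rich proteoglycan and Mfap4 for a microfibril protein. Those most like Ccn1 were Adamts1 (0.88), Fndc3b (0.86), Mmp14 (0.85), Sh3gl1 (0.84) and Timp2 (0.83), with 0.53 to 0.87 at E12.5. Adamts1 and Mmp14 code for matrix-cutting proteases and Timp2 for a protease inhibitor. Those most like Ccn2 were Igfbp7 (0.84), Acan (0.76), Gm26532 (0.75), Tm4sf1 (0.74) and Kif26b (0.73), with 0.10 to 0.62 at E12.5. Acan codes for the cartilage proteoglycan aggrecan. Among the members themselves, Ccn1 and Ccn4 were closest, with r of 0.56 at E15.5 and 0.70 at E12.5.

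In single connective tissue-like cells at E15.5, thinned to 2000 UMIs, the share with 1 member was set beside the presence or absence of another. Among the 499 cells with a Ccn1 UMI, 10.6% (8.06 to 13.7) had Ccn3, against 11.5% (9.76 to 13.5) of the 1171 cells without. Ccn4 was seen in 9.04% (5.36 to 14.1) of the 188 cells with Ccn3 and in 10.7% (9.14 to 12.3) of those without. For Ccn4 the figures beside Ccn1 were 11.6% with and 9.99% without. At E12.5, Ccn2 was seen in 5.16% (4.02 to 6.50) of cells with Ccn1 and in 3.66% (3.07 to 4.33) of those without. These shares are sparse, and overlapping intervals do not show that they are equal.

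Ccn5, the member without the carboxy-terminal domain, had 1 UMI in the whole E12.5 library, in a barcode removed as a doublet, and 22 UMIs in 17 barcodes at E15.5. Of these 22, the connective tissue-like class held 10 (0.548 CPM, 0.263 to 1.01), against 0 at E12.5, at least 3.50-fold higher over the 3-count limit with the 10 UMIs taken without counting error. Mural-like and erythroid-like cells had 3 UMIs each, and chondrocyte-like and muscle lineage-like cells 2 each. Such counts do not set an order of classes.

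Receptors that CCN proteins bind were measured in the same classes. Of 13 receptor genes, 11 had at least 20 UMIs in the connective tissue-like class, with 1 at least 2-fold higher, 1 lower and a median log2 ratio of -0.07. Over all genes of this class 10.2% were higher, 24.9% lower and the median was -0.38, and the counts of each list below are to be read beside these shares. The shares were 4.66% and 19.0% in the muscle lineage-like class, with a median of -0.36. Itgb3, the partner of Itgav in the vitronectin receptor, went from 0.992 to 7.23 CPM (ratio 2.87, 2.17 to 3.64), and Itgb8, which pairs with Itgav to release active TGF-beta, from 38.9 to 5.04 CPM (-2.95, -3.28 to -2.63). Itgb5 (0.59) had the other of the 2 highest ratios and Lrp6 (-0.86), a WNT co-receptor, the other of the 2 lowest. In the muscle lineage-like class 1 of 10 was at least 2-fold higher and 3 lower, the median was -0.61 and the sum went from 659 to 455 CPM. Itga6, the laminin receptor chain, had the highest ratio there (1.40, 0.93 to 1.90).

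The YAP and TEAD pathway drives Ccn1 and Ccn2 in culture. Its 11 listed genes include inhibitors as well as activators. Of these, 0 were at least 2-fold higher and 5 lower in the connective tissue-like class, with a median of -0.94. Such a mixed count does not measure the activity of the pathway, which was not tested. Yap1 went from 86.5 to 41.2 CPM and its relative Wwtr1 (TAZ) from 60.0 to 92.5. The lowest ratios were those of Tead4 (-2.02) and Tead2 (-1.35), the highest those of Wwtr1 (0.62) and Vgll3 (0.61). Of 12 targets other than Ccn genes, 2 were higher (Axl and Nt5e) and 4 lower, with a median of -0.66, beside the 10.2% and 24.9% of all genes. In the muscle lineage-like class 0 and 2 of the 11 pathway genes, and 0 and 2 of 11 targets, were at least 2-fold higher and lower, with medians of -0.59 and -0.58. Of 8 genes of the SRF and MRTF program, actin-linked genes, 0 were higher and 2 lower in the connective tissue-like class (median -0.51), a share near the 24.9% of all genes. In the chondrocyte-like class 5 of 7 were higher (median 1.89), beside 10.3% of all genes.

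Of 8 TGF-beta ligands and receptors in the connective tissue-like class, 0 were at least 2-fold higher and 2 lower, Tgfb2 (-1.27) among them, with a median of 0.27. The share that was lower is near that of all genes. Of 8 TGF-beta targets, 4 were higher and 2 lower (median 0.50), led by the matrix genes Postn (74.1 to 1480 CPM) and Col1a1. Of the 7 WNT targets with enough UMIs, 1 was higher and 3 lower (median -0.80), beside 10.2% and 24.9% of all genes of the class. The highest were Sp5 (2.35) and Nkd1 (0.40) and the lowest Lef1 (-3.89) and Tcf7 (-1.33), while Ccn4 was higher. In the muscle lineage-like class the 4 measurable WNT targets had 0 higher and 3 lower (median -2.14), beside 4.66% and 19.0% of all genes. The Ccn4 ratio there was 3.17. Of 14 other matricellular genes in the connective tissue-like class, 8 were higher and 2 lower (median 1.21), with Postn (4.32) and Sparcl1 (3.74) highest and Spp1 (-2.13) and Tnc (-1.94) lowest. In muscle 3 of 13 were higher and 2 lower (median -0.19).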

How the data were processed

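Limb muscle tissue of mouse embryos was measured by 10x droplet RNA sequencing, with a single library for E12.5 and for E15.5. Values in the deposited matrices are raw counts of UMIs, which per the file headers came from Cell Ranger 4.0.0; the submitters' processing notes name mm10 and Seurat 4.3.0. Cells with at least 500 genes and under 10% mitochondrial UMIs were kept, and doublets were removed by a neighbour score at 0.8% per 1000 barcodes (1270 cells at E12.5, 189 at E15.5). Each library was clustered on 2000 variable genes, 30 components and 15 neighbours (Leiden, resolution 1.0). The Ccn genes, the 9 gene lists, sex, myogenic, fibroblast, limb identity and 25 cell cycle genes, a list made here, were kept out of the variable genes.

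Naming used 14 marker lists. A cluster took a name when 3 or more markers exceeded the other cells 2-fold and were seen in 10% of its cells. In addition, either 1 marker was among its top 10 genes or at least 1 in 2 of the list passed. Clusters with markers of 2 lineages stayed unnamed. Leftover clusters became connective tissue-like against the non-mesenchymal classes, but not where another list had more of their top 10 genes. The unnamed E12.5 cells included 741 in a cluster led by Dcc and Tbx5 and 564 in one led by Maf and Aspn. This naming rule was adjusted after the clusters were seen. The members and lists were chosen with earlier results of these data known.

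UMIs summed per class were scaled to CPM with exact Poisson intervals, ratios have exact conditional intervals, and shares have Clopper-Pearson intervals after thinning to 2000 UMIs. A count of 0 was given a limit of 3 counts. Ratios of all genes with at least 20 UMIs over both libraries gave the background at 2-fold. Named genes were all members, for longer lists the 2 highest and 2 lowest ratios, and the 5 genes most like each member with at least 200 UMIs at E15.5; other list genes (Tgfb2, Col1a1, Yap1, Axl and Nt5e) were named after their values were seen. On simulated Poisson counts the ratio interval held the true value for 95.9% of 14803 genes (connective tissue-like) and 95.8% of 10962 (muscle lineage-like). The interval rests on the same counting model, so this checks the calculation only. Spread between cells or embryos was not simulated. The software was Python 3.11.15 with leidenalg 0.10.2, igraph 0.11.9, scikit-learn 1.9.0, scipy 1.17.1, numpy 2.4.6, pandas 2.3.3 and matplotlib 3.10.9. Alternatives changed the filters, doublet removal, resolution, variable genes, joint clustering, scaling, thinning and the sex of the cells; 4 that leave out clusters were chosen after seeing the data.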

Additional observations from a re-analysis of the deposited data

Results flagged for a closer look

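The log2 ratios of 2 genes went the opposite way from those in the other classes. Ccn3 was -0.99 in endothelial-like cells (4 UMIs at E12.5, 7 at E15.5), against 6.47 in the connective tissue-like class. Ccn4 was -0.34 there (4 and 11 UMIs), against 1.43 in connective tissue-like and 3.17 in muscle lineage-like cells. Both endothelial-like intervals include 0, each age has 1 library, and the difference between classes was not tested.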

How the results depend on the processing

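Of 182 alternative values of 13 log2 ratios, 181 kept the direction of the reported one. The exception was Ccn2 in the chondrocyte-like class, 1.20 with both libraries clustered together (49 E15.5 cells in the class) against -0.34. That clustering also left 0 members at least 2-fold lower in the connective tissue-like class, where Ccn2 was counted. The 181 values kept their sign, not their size. The Ccn2 ratio there was -0.044 in place of -2.02, and after thinning the Ccn1 ratio in muscle was 0.0080 in place of 0.30. In the connective tissue-like class 5 of 15 alternatives for Ccn4, 4 of 15 for Ccn2 and 1 of 15 for Ccn3 left the interval of the reported ratio. The Ccn3 ratio in the connective tissue-like class ran from 5.73 (male cells only, 1196 and 306 cells) to 7.16. With male cells only, 0 members were at least 2-fold lower in muscle, because Ccn2 then had 0 UMIs at E15.5 and no ratio. The causes of the other shifts were not tested. Without the minimum of 20 UMIs, genes at least 2-fold higher numbered 3486 in place of 1548 in the connective tissue-like class and 826 in place of 524 in muscle, and those lower 5873 in place of 3789 and 5892 in place of 2139. No paired analysis was possible because each age has 1 library. Depth limits Ccn5, Ccn3 at E12.5 and the small classes of E15.5.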

Other observations

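Ccn6, the remaining family gene, was not among the members. It had 64 UMIs in the kept cells at E12.5 (2.27 CPM) and 18 at E15.5 (0.441 CPM), a log2 ratio of -2.36 (-3.20 to -1.59), and it overlaps Tube1 on the opposite strand.

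Barcodes removed as doublets held 14 Ccn3 UMIs at E12.5 (2.27 CPM) and 193 at E15.5 (59.8 CPM). Barcodes removed by the gene or mitochondrial filter at E15.5 had 5.11 CPM of Ccn3 and 58.6 CPM of Ccn1, below the 45.0 and 182 CPM of the kept cells.

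At E12.5 the highest Ccn4 levels were in the Akap12-led cluster (53.6 CPM) and in 68 cells led by Macc1 and Slitrk6 (51.9 CPM), where Ccn1 was also highest of the 27 clusters (259 CPM). The Akap12-led cluster held 67 of the 368 connective tissue-like Ccn4 UMIs.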
